A study of Homo sapiens with 7 samples.

Results

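The regions described here are 461 wide peaks from a ChIP-seq library labelled H2A.Z, prepared from T-47D, an established human breast cancer cell line of luminal, estrogen receptor-positive type. They were chosen by 2 measured properties, a width of 2000 bp or more and no shared base with any peak of the other 5 lists of the series (labelled H3K27ac, H3K4me2, H3K36me3, H3K27me3 and H3K9me3). They made up 0.883% of the 52188 labelled H2A.Z peaks on chromosomes 1 to 22 and X, and 461 of the 285703 peaks of all 6 lists. The labels name no treatment for any group, and all cells were cultured in serum-containing medium (10%) in 100 mm dishes and taken at 70 to 80% confluence. The labels of the groups differ in the antibody. Each antibody had 1 library, so there were no replicates, and an input library that was also listed is not analysed here.

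H2A.Z is a variant of histone H2A that dedicated remodelling complexes exchange into nucleosomes. It is best known from the nucleosomes beside active gene starts and at enhancers, and it has also been described at Polycomb targets and in heterochromatin near centromeres. H3K27ac and H3K4me2 are marks of active promoters and enhancers, H3K36me3 follows transcribed gene bodies, H3K27me3 is deposited by Polycomb, and H3K9me3 is a mark of constitutive heterochromatin.

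The list did not show the placement at active sites for which H2A.Z is best known. Only 179 of its 52188 peaks (0.343%, 95% Wilson interval 0.296 to 0.397) overlapped an H3K27ac or H3K4me2 peak. The regions are therefore called labelled H2A.Z peaks throughout, and labelled H3K9me3 peaks are named in the same way. Having been selected for meeting no other list, the 461 peaks cannot themselves test the label. Their deposited record is a position in hg19 with no height, enrichment or p-value, and the read depth is unknown. Wilson intervals and intervals of medians cover counting error with peaks taken as independent. Peaks of 1 library cluster and are not replicates, so the intervals are too narrow, and no p-value is given.

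The wide peaks were set against 29176 narrow labelled H2A.Z peaks that also overlapped no other list. Narrow means at most 0.501 kb, the commonest width, which 66.8% of the list had exactly. The 461 wide peaks had a median width of 2.36 kb (quartiles 2.16 and 2.77 kb), and together spanned 1.19 Mb, or 3.50% of the bases summed over the list. Only 81 reached 3 kb, 17 reached 4 kb and 5 reached 5 kb. In all, 729 labelled H2A.Z peaks were wide, and 63.2% of these lay alone (Wilson interval 59.7 to 66.7), against 83.7% of the 34854 narrow peaks (83.3 to 84.1). These 2 shares are part of the selection, and a longer peak also has more bases with which to meet another list. The remaining 268 wide peaks mostly met H3K27me3 (185 peaks) or the labelled H3K9me3 list (82 peaks). H3K27me3 was met by 25.4% of all wide peaks, 13.7% of all narrow peaks and 14.8% of the whole list. For labelled H3K9me3 these shares were 11.2%, 2.16% and 2.89%. Leaving such peaks out therefore cut the wide and narrow classes unequally. Contact with H3K36me3 (8 peaks), H3K4me2 (2 peaks) and H3K27ac (1 peak) was rare, and 10 of the 268 met 2 or more lists.

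The wide peaks were spread unevenly over the chromosomes. Chromosome 11 held 79, chromosome 8 held 72, chromosome 12 held 55 and chromosome 7 held 54, so that these 4 chromosomes carried 56.4% of the wide peaks and 36.7% of the narrow ones. The 3 with the most carried 44.7% of the wide peaks (Wilson interval 40.2 to 49.2) and 29.5% of the narrow ones (29 to 30), a description in which the wide peaks picked the chromosomes. Because the labelled H2A.Z list was itself dense on some chromosomes, the share of its peaks that were wide and alone is the fairer measure. That share was 1.37% on chromosome 8 (1.09 to 1.72), 1.33% on chromosome 7 (1.02 to 1.72), 1.30% on chromosome 11 (1.04 to 1.61), 1.21% on chromosome 12 (0.928 to 1.57) and 1.08% on chromosome 14 (0.792 to 1.47). Elsewhere it was 0.566% in all. Density of the list and this share did not always go together. Chromosome 20 had 44.4 labelled H2A.Z peaks per Mb, close to the 45.2 of chromosome 11, and a share of only 0.573% (0.353 to 0.929). Chromosomes 2, 13 and 18 held none. Their lists were short (418, 162 and 186 peaks), and a count of 0 there allows shares of up to 0.718%, 1.85% and 1.61%, so a share like that of most other chromosomes was not detectable. Copy number of the line was not measured here, and its part in these shares was not tested.

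**Figure D1:**
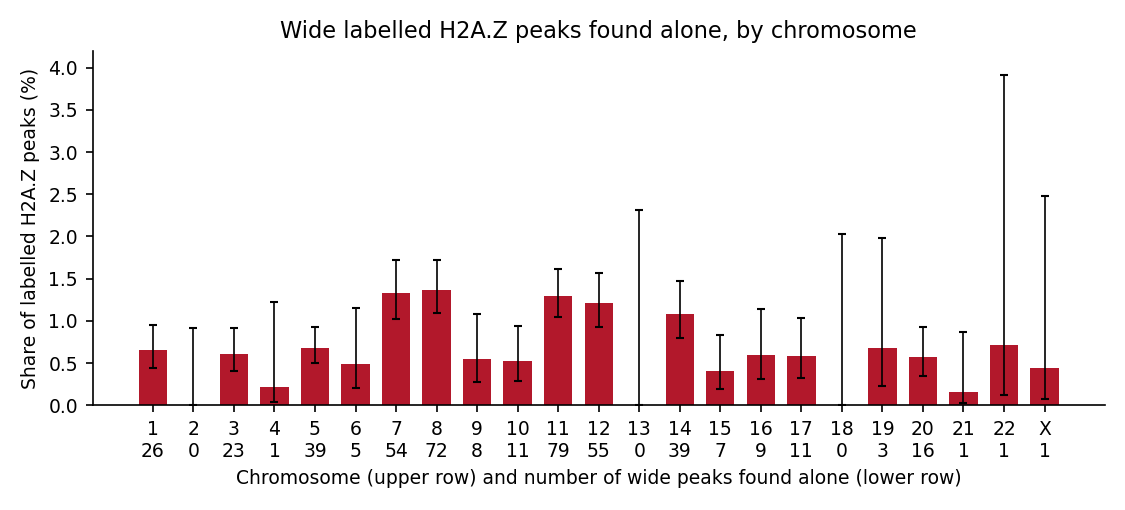
Share of labelled H2A.Z peaks that were wide and found alone (vertical axis, percent, with 95% Wilson intervals) for each chromosome, with the number of such peaks under its name. Chromosomes 7, 8, 11, 12 and 14 lie above 1%, and chromosomes 2, 13 and 18 have none.

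Wide peaks sat in crowded stretches of their own list. Within 50 kb of its edges a wide peak had a median of 18 other labelled H2A.Z peaks (interval of the median 17 to 19, quartiles 9 and 23), and a narrow peak had 9 (9 to 10, quartiles 4 and 17). The difference of 9 had an interval of 7.59 to 10. The median was higher for wide peaks on all 15 chromosomes that held 5 or more of them, for example 23 against 11 on chromosome 12, 20 against 11 on chromosome 7 and 15 against 12 on chromosome 14. At least 1 neighbour was present for 456 of the 461 (98.9%), where 93.7% of all labelled H2A.Z peaks had one, so this count separates the wide peaks little. At least 20 neighbours were present for 205 (44.5%, Wilson interval 40 to 49), against 16.5% of narrow peaks (16.0 to 16.9) and 17.9% of the whole list. The 268 wide peaks that met another list stood between, with a median of 13 neighbours (11 to 14). Width and crowding come from the same library and cannot be read as 2 independent measurements.

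**Figure D2:**
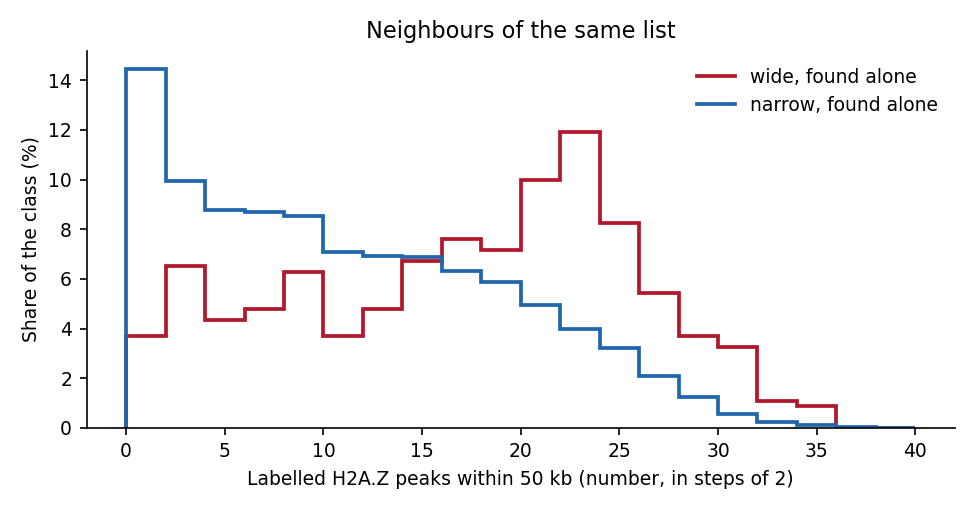
Share of each class (vertical axis, percent) by the number of labelled H2A.Z peaks within 50 kb (horizontal axis, in steps of 2), for the 461 wide and the 29176 narrow peaks found alone. Narrow peaks are commonest at the fewest neighbours, and wide peaks are commonest above 20.

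The relation ran through the whole range of widths among peaks found alone. The median number of neighbours was 9 at the commonest width or below, 12 above it and under 1 kb, 14 from 1 to 1.5 kb, 15 from 1.5 to 2 kb, 17 from 2 to 3 kb and 22 at 3 kb or more (21 to 23, 81 peaks). Read the other way, the share of lone peaks that were wide was 0.167% among those with no neighbour (5 of 2986), 0.624% with 1 to 4 and 0.704% with 5 to 9. It was 0.950% with 10 to 19 neighbours, 2.34% with 20 to 29 (2.03 to 2.71) and 4.49% with 30 or more (3.03 to 6.59). The share was thus higher at each step. The peaks nearest to the wide ones were close by, at a median of 1.46 kb (1.27 to 1.62), against 2.95 kb (2.88 to 3.01) for narrow ones. Among the neighbours of a wide peak a median of 42.9% exceeded the commonest width, and among those of a narrow peak 33.3%.

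Chaining labelled H2A.Z peaks that lay within 50 kb of the next gave 6681 stretches, 3286 of them a single peak. Wide lone peaks occurred in 226 stretches. These were 63 of the 93 stretches with 100 or more peaks, and 163 of the far more numerous shorter ones. Counted once per peak, so that a stretch with several wide peaks enters several times, their stretches had a median of 114 peaks (93 to 135) over 695.1 kb. The stretches around narrow peaks, counted in the same way, had 58 peaks (56 to 61) over 491.5 kb. Of the wide peaks 246 (53.4%, Wilson interval 48.8 to 57.9) lay in stretches of 100 or more peaks, against 37.4% of narrow peaks. They also lay farther inside, at a median of 190.9 kb from the nearer end of the stretch (148.0 to 207.6), against 89.9 kb (86.8 to 92.8), although longer stretches also have more room inside. The stretch with the most wide lone peaks ran over 4836 kb of chromosome 8 (135892646 to 140728516) and held 22 among 906 peaks, or 2.43%. The next, on chromosome 12 (126487541 to 129258105), held 19 among 648 peaks, or 2.93%. Next in number of wide lone peaks were 2 shorter stretches with a higher share. They held 16 of 148 peaks (10.8%) on chromosome 7 (61979469 to 62750682) and 14 of 130 (10.8%) on chromosome 8 (43181514 to 43790239).

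Wide lone peaks also lay near each other. Another of the 461 was found within 50 kb of 147 of them (31.9%, Wilson interval 27.8 to 36.3). One was found within 50 kb of 9.67% of narrow peaks (9.34 to 10.0) and of 10.9% of the whole list. The difference between wide and narrow peaks was 22.2 percentage points (18.1 to 26.6). It was 10.7 points among peaks more than 5 Mb from any peak-free gap of 1 Mb or more, and 10.8 points without chromosomes 7, 8, 11 and 12. The share was higher for wide peaks on 12 of the 15 chromosomes with 5 or more of them.

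Most wide peaks were nevertheless the only one in their place. Chaining them within 50 kb gave 360 groups, of which 314 held 1 peak, 28 held 2 and 18 held 3 or more. The 4 largest groups lay on chromosomes 7, 8, 12 and 11, and 3 groups tied for the next place with 4 wide peaks each. The group on chromosome 7 (62153721 to 62457898) had 16 wide peaks of 2.01 to 3.74 kb over 304.2 kb, among 65 labelled H2A.Z peaks in the same span. That on chromosome 8 (43452501 to 43724228) had 14, of 2.01 to 3.96 kb, among 80 peaks over 271.7 kb. The third, on chromosome 12 (38236111 to 38391912), had 9, of 2.21 to 4.16 kb, among 41 peaks over 155.8 kb. On chromosome 11 a group of 7 (54804938 to 54900103) lay among 25 peaks. These 4 spans lay within 1.10 Mb of a peak-free gap. None of the 4 held an H3K27ac, H3K4me2, H3K36me3 or H3K27me3 peak, and each held labelled H3K9me3 peaks, 7, 2, 2 and 3 in the order given. A mean of 1.86 labelled H3K9me3 peaks lay within 50 kb of a narrow lone peak. The 4 spans differ in length from that window and from each other (95.2 to 304.2 kb). The counts by themselves thus show neither a surplus nor a lack. The 3 tied groups lay at very different distances from a gap. One on chromosome 11 (50518334 to 50597905) was 0.985 Mb away, another on that chromosome (48680379 to 48741048) was 2.84 Mb away, and each held 1 labelled H3K9me3 peak and none of the other 4 lists. The one on chromosome 8 (139555858 to 139632396) was 92.7 Mb away and held 4 labelled H3K9me3 peaks and 1 H3K27me3 peak.

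A stretch of at least 1 Mb in which no library had a peak is called a gap. There were 58 on 20 chromosomes, and they covered 172.1 Mb. As background, hg19 carries long unsequenced spans at its centromeres, to which no read can align. No annotation of hg19 was used here, so what each gap contains was not tested. A region without a peak may also hold signal under the authors' threshold.

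Wide lone peaks were found beside such gaps more often than narrow ones. Of the 461, 63 lay within 1 Mb of a gap (13.7%, Wilson interval 10.8 to 17.1), against 942 of 29176 narrow peaks (3.23%, 3.03 to 3.44) and 3.60% of the whole list. The share was higher for wide peaks on 9 of the 15 chromosomes with 5 or more of them. On chromosomes 3, 6 and 16 this rested on 1 wide lone peak each, of 23, 5 and 9. Chromosomes 14 and 15 had no peak of either class so close, so only 13 of the 15 could differ. The share was lower on 4 (chromosomes 1, 9, 17 and 20), where no wide lone peak lay so close. These 4 held only 26, 8, 11 and 16 wide lone peaks. Narrow shares there were 0.542%, 0.808%, 6.17% and 2.79%, so a count of 0 does not show a lower share. The overall difference was 10.4 percentage points (7.59 to 13.9). With narrow peaks weighted to the chromosomes of the wide ones it was 10.4 points, and among peaks with 10 or more neighbours it was 12.6 points. Wide peaks that met another list were at 3.73% (2.04 to 6.73). The share near a gap rose with width among lone peaks, from 4.66% above the commonest width and under 1 kb to 8.88% from 1.5 to 2 kb, 11.3% from 2 to 3 kb and 24.7% at 3 kb or more (20 of 81, 16.6 to 35.1).

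The excess near gaps rested on few chromosomes, and from 1 to 2 Mb largely on a single group. Among lone labelled H2A.Z peaks 3.74% were wide within 1 Mb (2.93 to 4.75) and 3.19% from 1 to 2 Mb (2.25 to 4.49). Of the 31 wide peaks from 1 to 2 Mb, 16 were the group on chromosome 7 (62153721 to 62457898). The second share thus does not show a general reach of the excess. From 2 to 5 Mb 0.999% were wide (0.648 to 1.54) and from 5 to 20 Mb 0.597% (0.449 to 0.793). The share then stood at 0.824% from 20 to 50 Mb and 1.12% beyond. Of the 94 wide peaks within 2 Mb, 93 lay beside the widest gap of their chromosome and 78 lay on chromosomes 7, 8, 11 and 12. Neither share was worked out for the 1575 narrow peaks within 2 Mb, so these counts set the wide peaks apart from nothing. At any distance from a gap, chromosomes 7, 8, 11 and 12 held 36.7% of narrow peaks. Without these 4 chromosomes the difference within 1 Mb fell to 3.20 percentage points (0.670 to 7.38), from 5.97% of 201 wide and 2.77% of 18476 narrow peaks. On chromosomes 17, 20 and 21, where 66, 41 and 42 narrow peaks lay within 1 Mb of a gap, no wide lone peak did. These chromosomes held only 11, 16 and 1 wide lone peaks. That is too few for a 0 to show a lower share than the 6.17%, 2.79% and 11.6% of their narrow peaks.

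**Figure D3:**
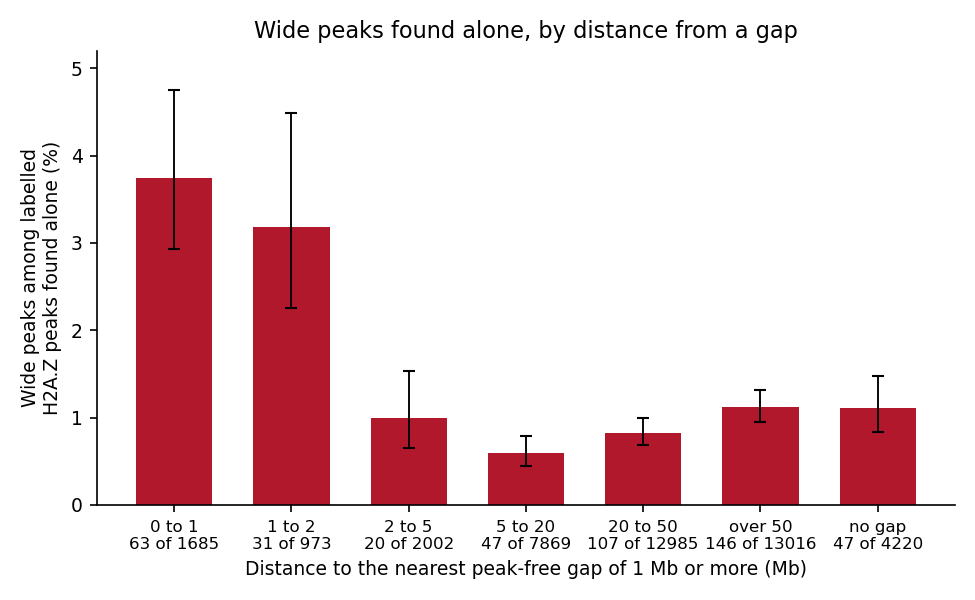
Share of wide peaks among all labelled H2A.Z peaks found alone (vertical axis, percent, with 95% Wilson intervals) by distance to the nearest gap of 1 Mb or more (horizontal axis, Mb), with counts under each bar and chromosomes without a gap in the last bar. The first 2 bars, up to 2 Mb, lie above 3%, and the others lie between 0.597% and 1.12%. In the second bar, 16 of the 31 wide peaks are a single group on chromosome 7.

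Wide lone peaks were also counted on the 2 sides of single gaps. The shares differed, but their Wilson intervals overlapped at each gap named here, so unequal flanks are not shown. After the gap on chromosome 7 (58049894 to 61055989), 16 of the 210 labelled H2A.Z peaks within 2 Mb were wide and alone (7.62%), and before it 8 of 181 (4.42%). Before the gap on chromosome 8 (43790240 to 46847005) the count was 14 of 143 (9.79%), and after it 7 of 161 (4.35%). The intervals were 5.92 to 15.8% before this gap and 2.12 to 8.70% after it. The 16 on chromosome 7 and the 14 on chromosome 8 were each a single group, described above. On chromosome 11 both sides of the gap (51582773 to 54794147) held them, 9 of 176 before (5.11%) and 11 of 312 after (3.53%). Chromosome 12 had 11 of 176 after its gap (34827330 to 37906596, 6.25%) and 2 of 116 before it (1.72%). The intervals there were 3.53 to 10.8% after the gap and 0.474 to 6.07% before it. On chromosome 5 the counts were 4 of 182 and 3 of 251. Of the 5 wide peaks nearest to a gap, 4 lay on chromosome 11 at 10.8 to 44.6 kb from its end (54804938 to 54807533, 54810658 to 54813349, 54830829 to 54833458 and 54838774 to 54840775), with 15 to 23 same-list neighbours. The remaining one lay on chromosome 8 (43722218 to 43724228), 66.0 kb from the gap, with 29 neighbours.

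Distance to the other lists gave different results list by list. Labelled H3K9me3 peaks were nearer to wide peaks, at a median of 15.6 kb (13.0 to 18.0), than to narrow ones, at 24.7 kb (24.1 to 25.2), a difference of -9.08 kb (-11.7 to -6.57). This direction was seen on 13 of the 15 chromosomes with 5 or more wide peaks. It was 7.02 against 14.1 kb on chromosome 11 and 9.46 against 17.3 kb on chromosome 7. The exceptions were chromosome 3, at 40.7 against 39.4 kb, and chromosome 14, at 23.8 against 17.3 kb. The difference was -5.69 kb with narrow peaks weighted by chromosome, and -1.30 kb (-3.84 to 1.12) among peaks with 10 or more same-list neighbours, an interval that includes 0. For the 81 peaks of 3 kb or more it was -7.34 kb (-14.4 to 0.677). Within 10 kb of a labelled H3K9me3 peak lay 171 of the 461 (37.1%, Wilson interval 32.8 to 41.6) and 27.6% of narrow peaks. The share of the whole list was 29.6%, which includes peaks that overlap one. The selection had already removed the 11.2% of all wide and 2.16% of all narrow peaks that overlapped this list. These distances therefore hold for lone peaks only, not for wide peaks in general.

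H3K27me3, the list that labelled H2A.Z peaks met most often, was farther from wide lone peaks. The median was 35.2 kb (24.2 to 46.1), against 20.5 kb (19.7 to 21.4) for narrow ones, a difference of 14.6 kb (3.63 to 25.6). Within 10 kb of an H3K27me3 peak lay 157 of the 461 (34.1%, 29.9 to 38.5), 40.3% of narrow peaks (39.8 to 40.9) and 47.6% of the whole list, overlaps included. The selection had already removed the 25.4% of all wide and 13.7% of all narrow peaks that overlapped this list. The 2 classes were thus cut unequally, and these values hold for lone peaks only, not for wide peaks in general. The difference in medians depended on where the peaks lay. Without chromosome 11 it was 9.87 kb (-0.139 to 19.5). Among peaks more than 5 Mb from a gap the difference was 1.96 kb (-6.75 to 12.9), and without chromosomes 7, 8, 11 and 12 it turned to -5.66 kb (-13.6 to -0.151).

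H3K4me2 was also farther from wide peaks, at a median of 78.3 kb (66.1 to 92.4) against 55.4 kb (54.3 to 56.3), a difference of 22.98 kb (10.7 to 37.1). Within 50 kb an H3K4me2 peak was present for 172 wide peaks (37.3%, 33.0 to 41.8) and for 47.01% of narrow ones (46.4 to 47.6). Without chromosomes 7, 8, 11 and 12 the difference in medians was -1.95 kb (-13.3 to 14.9), and among peaks more than 5 Mb from a gap it was 10.97 kb (-1.95 to 25). H3K27ac and H3K36me3 were the most distant lists for both classes, and neither difference exceeded counting error. Medians for H3K27ac were 293.8 kb and 253.9 kb, a difference of 39.9 kb (-10.6 to 84.8). Those for H3K36me3 were 415.1 kb and 388.9 kb, a difference of 26.2 kb (-19.0 to 82.0). With wide peaks taken from 1500 bp both intervals lay above 0, at 37.4 kb (18.2 to 65.1) for H3K27ac and 52.4 kb (19.5 to 87.4) for H3K36me3. Without chromosomes 7, 8, 11 and 12 both differences turned, to -28.9 kb (-68.9 to 43.5) and -45.8 kb (-96.3 to 17.4). Among peaks more than 5 Mb from a gap H3K36me3 was at -7.47 kb (-65.1 to 49.6).

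**Figure D4:**
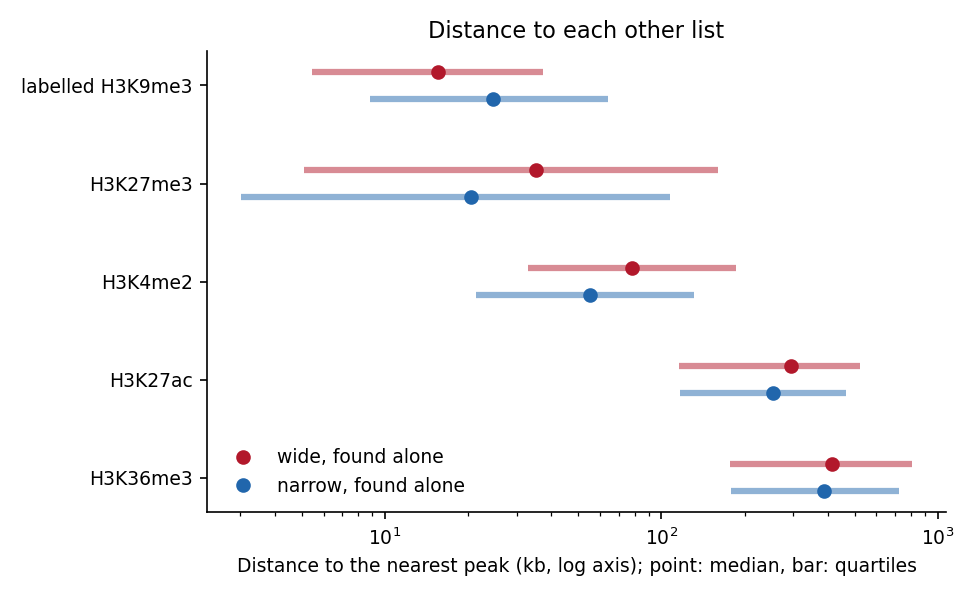
Distance from wide and narrow labelled H2A.Z peaks found alone to the nearest peak of each other list (horizontal axis, kb, logarithmic), with points at the median and bars from the lower to the upper quartile. The labelled H3K9me3 list is nearer to wide peaks (15.6 against 24.7 kb), and the medians of the other 4 lists are farther from them.

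Lone did not mean remote. The nearest peak of any other list lay at a median of 6.14 kb from a wide peak (4.72 to 7.21) and 5.92 kb from a narrow one (5.79 to 6.07). For 213 wide peaks it lay within 5 kb (46.2%, against 46.0% of narrow peaks) and for 56 within 1 kb (12.1%, against 15.6%). That nearest peak was a labelled H3K9me3 peak for 258 of the 461 (56.0%) and for 39.0% of narrow peaks. It was an H3K27me3 peak for 165 (35.8%, against 45.2%) and an H3K4me2 peak for 26 (5.64%, against 12.8%). An H3K36me3 peak was nearest for 8 (1.74%, against 1.68%) and an H3K27ac peak for 4 (0.868%, against 1.37%). Only 21 wide peaks had none of the 5 lists within 50 kb (4.56%, Wilson interval 3.0 to 6.86), against 7.14% of narrow ones (6.85 to 7.44).

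The 5 most remote ones lay in 3 places. A peak on chromosome 8 (43562487 to 43564919) was 102.2 kb from the nearest labelled H3K9me3 peak and farther from the rest. With it, 2 more of the group of 14 on that chromosome (43591624 to 43594996 and 43596045 to 43599429) were 84.8 and 80.3 kb away. These 3 had 27 to 30 same-list neighbours. A peak on chromosome 14 (29008443 to 29010709) lay 87.5 kb from an H3K4me2 peak and 87.9 kb from an H3K27ac peak, with 1 same-list neighbour. One on chromosome 3 (7572707 to 7574810) lay 78.3 kb from a labelled H3K9me3 peak, with 11 neighbours.

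Around the wide peaks the surplus of their own list extended far beyond single neighbours. In the first 10 kb on either side labelled H2A.Z peaks covered 14.7% of the sequence, against 7.32% beside narrow peaks and 7.96% with narrow peaks weighted by chromosome. From 90 to 100 kb these values were 10.7, 6.43 and 7.05%, and from 490 to 500 kb they were 6.01, 4.46 and 4.91%. Labelled H3K9me3 peaks covered 1.40% of the first 10 kb beside wide peaks, against 0.979% and 1.09%, and 1.32% from 490 to 500 kb, against 0.948% and 1.04%. H3K27me3 covered 3.39% of the first 10 kb beside wide lone peaks, against 4.34% and 4.37%, after the unequal removal of peaks that met this list. Peaks that met the labelled H3K9me3 list had been removed unequally as well. Cover by that list was thus higher beside wide lone peaks both near them and 500 kb away. The surplus of their own list declined with distance. These profiles are sums over peaks and have no interval.

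**Figure D5:**
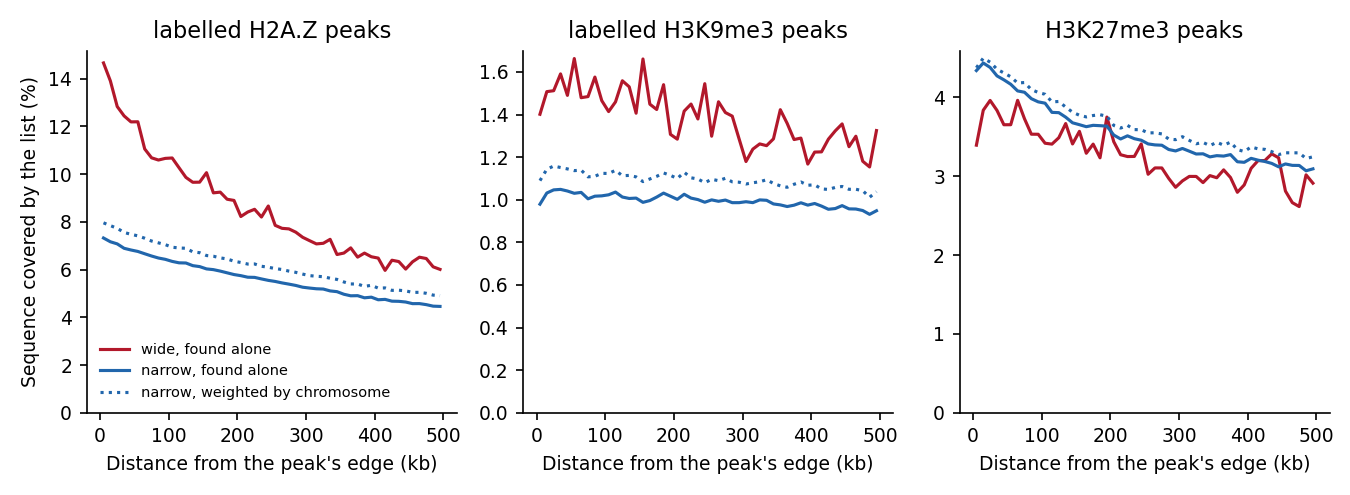
Percent of sequence covered by labelled H2A.Z, labelled H3K9me3 and H3K27me3 peaks (vertical axes, each starting at 0) against distance from the edge of a peak in steps of 10 kb (horizontal axis), for wide lone peaks, narrow lone peaks and narrow lone peaks weighted to the chromosomes of the wide ones. Beside wide peaks the labelled H2A.Z cover starts at 14.7% and declines to 6.01%, and beside narrow peaks it runs from 7.32% to 4.46%.

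The 10 widest peaks illustrate these surroundings. The widest, on chromosome 7 (56532446 to 56539164), spanned 6.72 kb and lay 1.51 Mb from a gap, with 18 same-list neighbours, 2 other wide lone peaks within 50 kb and a labelled H3K9me3 peak 3.71 kb away. The second, on chromosome 11 (131870905 to 131877577), spanned 6.67 kb, had 27 neighbours and lay 77.1 Mb from a gap, with a labelled H3K9me3 peak at 2.44 kb. The next 3 had 21, 20 and 23 neighbours and lay on chromosome 5 (178358075 to 178363409, 5.34 kb wide), on chromosome 1 (166087987 to 166093257, 5.27 kb) and again on chromosome 11 (127177847 to 127183002, 5.16 kb). Another pair on chromosome 11 lay nearer the gap, at 48680379 to 48685074 (4.70 kb wide, 2.90 Mb away, 21 neighbours) and at 51232869 to 51237331 (4.46 kb wide, 0.345 Mb away, 28 neighbours). The peak on chromosome 11 at 126715056 to 126719502 (4.45 kb) had 31 neighbours, and that on chromosome 3 (44766325 to 44770623, 4.30 kb) had 19. Only the peak on chromosome 8 (53510957 to 53515593, 4.64 kb) stood in a thin stretch, with 2 neighbours. Of these 10, 9 thus had 18 or more neighbours, where 18 was the median of the 461. Within 2 Mb of a gap lay 2 of the 10, 20.4% of the 461 and 5.40% of narrow peaks.

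The most crowded wide peaks were not the widest. One of 2.02 kb on chromosome 17 (31737892 to 31739907) had 35 labelled H2A.Z neighbours and lay 0.361 kb from a labelled H3K9me3 peak. A peak of 2.36 kb on chromosome 11 (132599624 to 132601984), one of 2.06 kb on chromosome 5 (169374820 to 169376875) and one of 3.71 kb on chromosome 8 (43646495 to 43650208) had 34 neighbours each. A further peak on chromosome 8 (43639827 to 43642220) had 33. Those on chromosomes 17, 11 and 5 had no other wide lone peak within 50 kb, and each of the pair on chromosome 8 had 5.

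The width limit fell inside a continuous range. Just inside it, chromosome 5 had a peak of 2000 bp (153313073 to 153315072) with 10 same-list neighbours. Chromosome 11 had one of 2.002 kb (54838774 to 54840775) with 23 neighbours and one of 2.003 kb (48412003 to 48414005) with 11. Others of 2.003 kb lay on chromosome 16 (32583827 to 32585829, 8 neighbours) and chromosome 7 (56517890 to 56519892, 12 neighbours). Just outside, a lone peak of 1.999 kb on chromosome 11 (96594457 to 96596455) had 11 neighbours. Of the 1.997 kb peaks, one lay on chromosome 15 (88173394 to 88175390) and one on chromosome 7 (67352317 to 67354313), each with 18 neighbours. Peaks of 1.996 kb on chromosome 15 (31903360 to 31905355) and on chromosome 20 (29966569 to 29968564) had 5 and 14. The neighbours of the 5 just inside and the 5 just outside thus overlapped in number.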

How the data were processed

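ChIP-seq peak lists of 6 libraries from T-47D cells were used, 1 per antibody. The authors deposited, for each library, a list of 4 columns (chromosome, start, end and a running number), which hold positions only, with no height or p-value. HOMER 4.2, Bowtie2 2.1.0 and the build hg19 (GRCh37) are listed, with no role, per the submitters' processing notes. How peaks were called, whether the input served as control, and read depth were not given in the sources used here, nor whether the libraries share a culture. No genome or annotation of hg19 was used, so no sequence and no gene is named.

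Coordinates are 1-based. The 324 labelled H2A.Z peaks on chromosome Y and unplaced contigs were set apart. Overlap means 1 shared bp, and distances run edge to edge. Narrow peaks go up to 501 bp. Gaps were sought between the first and last peak of each chromosome. Shares have Wilson 95% intervals, medians exact order-statistic intervals, and differences square-and-add intervals of both. A count of 0 was given the limit of 3 counts. There was no test, since each mark had 1 library. Named regions are the 10 widest, the 5 largest groups (the fifth place was a tie of 3, all given), and 5 each of the nearest to a gap, most crowded, most remote, just inside and just outside the width limit. The regions, measures and alternatives were chosen with earlier results of these data known. Weighting by chromosome, the limits to peaks over 5 Mb from a gap or with 10 or more neighbours, and leaving out chromosomes 7, 8, 11 and 12 were added after seeing the data. The functions were tested on simulated data against direct counts. Python 3.11.15, numpy 2.4.6, pandas 2.3.3, scipy 1.17.1 and matplotlib 3.10.9 were used.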

Additional observations from a re-analysis of the deposited data

Results flagged for a closer look

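Peaks outside chromosomes 1 to 22 and X entered no comparison, and wide labelled H2A.Z peaks were frequent there. On chromosome Y and unplaced contigs, 44 of 324 labelled H2A.Z peaks (13.6%, Wilson interval 10.3 to 17.7) were 2000 bp or more, against 729 of 52188 (1.40%, 1.30 to 1.5) on the chromosomes compared, and a count of 0 would allow 0.926%. They lay on 16 sequences, with 1 peak on chromosome Y, and the widest spanned 11.9 kb. Of these 44, 2 were found alone, against 461 of the 729. Labelled H3K9me3 peaks were met by 27 of the 44, H3K27me3 by 23, H3K4me2 by 14, H3K36me3 by 14 and H3K27ac by 13. Among the 729 these counts were 82, 185, 2, 8 and 1. The cause was not tested.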

How the results depend on the processing

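Of 104 values of the 9 comparisons under alternative settings, 99 kept the direction of the main value and 75 stayed inside its interval. All values below are wide minus narrow peaks. Median same-list neighbours differed by 7 with wide peaks from 1500 bp, 13 from 3000 bp, 6 with peaks merged within 1 kb, 4 and 15 in windows of 25 and 100 kb, 7 with narrow peaks weighted by chromosome and 7 without chromosomes 7, 8, 11 and 12. Shares with another wide lone peak within 50 kb differed by 13.9 percentage points from 3000 bp, 10.7 over 5 Mb from a gap and 10.8 without the 4 chromosomes. Shares within 1 Mb of a gap differed by 7.42 points from 1500 bp, 21.5 from 3000 bp, 16.1 with other lists kept 5 kb away, 5.60 merged and 3.20 without the 4 chromosomes. Shares on the 3 leading chromosomes differed by 10.5, 28.9, 19.9 and 7.30 points in the first 4 of these settings. Distance differences moved to -28.9 kb (H3K27ac), -45.8 kb (H3K36me3), -1.95 kb (H3K4me2) and -5.66 kb (H3K27me3) without the 4 chromosomes, all 4 opposite in sign to the main values. The value for H3K36me3 was 85.0 kb merged and -7.47 kb over 5 Mb from a gap. For H3K27me3 it was 1.964 kb over 5 Mb from a gap and 26.1 kb with 10 or more neighbours. For labelled H3K9me3 it was -12.3 kb merged, -5.69 kb weighted and -1.30 kb with 10 or more neighbours. The cause of these changes was not tested. No paired analysis was possible because each mark had 1 library. Depth is unknown, so its part in peak width and in the gaps was not tested.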

Other observations

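Counted in fixed windows of 1 Mb, wide lone peaks occurred in 250 of the 2254 windows that held a labelled H2A.Z peak (11.1%). The 4 windows with the most held 53 of the 461 (11.5%). These began at 62 Mb of chromosome 7 (16 of 151 labelled H2A.Z peaks), 43 Mb of chromosome 8 (14 of 135), 128 Mb of chromosome 12 (12 of 254) and 38 Mb of chromosome 12 (11 of 131). The highest share among the 12 fullest windows was at 54 Mb of chromosome 11, where 7 of 44 peaks were wide and alone (15.9%).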
